A study of Mus musculus with 12 samples.

Results

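The integrin and laminin genes of mouse mammary organoids were followed over 4 doses of the GSK3 inhibitor CHIR99021. The group was chosen by gene symbol alone: every gene named as an integrin α chain (Itga), an integrin β chain (Itgb) or a laminin chain (Lama, Lamb, Lamc) in the deposited count table, which gave 36 of 25210 genes. These were 25 integrins (17 α and 8 β chains) and 11 laminins (5 α, 3 β and 3 γ chains). Itga2b, Itgb2l and Itgbl1 have symbols outside that pattern and were not included. By their best known site of expression the 36 genes were divided into 11 epithelial, 5 broadly expressed, 12 stromal, muscle or vascular (called stromal) and 8 leukocyte members. Of the 36, 35 had enough counts to be tested. Itgb7, a leukocyte β chain with at most 14 counts in any library, did not.

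The organoids came from mammary glands of female virgin FVB/N mice aged 8 to 11 weeks and grew embedded in Matrigel with reduced growth factors. Cultures from 3 animals, called cultures 1, 2 and 3, each received the vehicle dimethyl sulfoxide (DMSO) and CHIR99021 at 1, 1.5 and 3 µM for 7 days, giving 12 bulk libraries of polyadenylated RNA. CHIR99021 was added to raise WNT signalling through β-catenin, which GSK3 normally marks for destruction. No genotype or transgene differed between the groups, and Matrigel, which is itself a laminin-rich basement membrane extract, surrounded the cells in all of them.

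Laminins are trimers of 1 α, 1 β and 1 γ chain and form, with type IV collagen, nidogen and perlecan, the basement membrane on which mammary epithelium sits. Integrins are pairs of 1 α and 1 β chain that span the cell membrane and bind such ligands outside the cell. In the mammary gland α6β4 anchors basal cells to laminin at hemidesmosomes, α3β1, α6β1 and α2β1 bind laminin or collagen, and integrins with the β2 chain are found on leukocytes.

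Library totals ran from 10.1 to 24.5 M counts (M, mega). The members took 0.497% to 0.519% of the counts in the DMSO libraries, and 0.301%, 0.294% and 0.520% in cultures 1, 2 and 3 at 3 µM. Culture 3 at 3 µM therefore stood apart from the other 3 µM libraries, and calls against DMSO that rest on it are given with and without it. Because that library was singled out from the members' own values, fits without it show only how far a result depends on it. A call gained without it is no separate support for a change. Epithelial markers were present throughout, with summed levels of 6 genes (Epcam, Cdh1, Krt7, Krt8, Krt18, Cldn4) of 1973 to 3169 counts per M counts (CPM) in DMSO and 2447 to 2934 CPM at 3 µM. Markers of fibroblasts, leukocytes, endothelium and pericytes were also present in DMSO and are given beside the stromal and leukocyte members. In the annotation 8 members (Itga4, Itga7, Itga8, Itgad, Itgav, Itgb4, Lama3, Lamc3) share exon bases with an opposite-strand gene that is also in the count table, and since strand use in counting is not given in the sources used here, reads of such pairs cannot be told apart. Lama2 shares exon bases with an opposite-strand gene that is not in that table. In bulk RNA, fewer cells of a type and less RNA per cell cannot be told apart. Library sizes behind the CPM values were scaled with edgeR's TMM factors, and all tests are contrasts in edgeR's quasi-likelihood model over all 15316 genes tested, with Benjamini-Hochberg adjusted p-values called below 0.05.

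At 3 µM the members divided by class. Of 11 epithelial members 7 rose and 2 fell, with a median log2 fold change of 1.19. Of 5 broad members 0 rose and 3 fell (median −0.79), of 12 stromal members 0 rose and 9 fell (median −1.82), and of 7 leukocyte members tested 0 rose and 6 fell (median −3.57). Over all genes tested the median was −0.03. In all, 27 of 35 members were called, 7 higher and 20 lower, where 57.5% of all genes were called, 29.9% higher and 27.7% lower. The members' count was therefore above the background share in the lower direction and below it in the higher direction. With the culture number as a block 30 members were called, 7 higher and 23 lower, where 68.9% of all genes were called, 34.1% higher and 34.8% lower. The added calls were Lamb1, Itga1 and Itga4. When single libraries were left out, 3 to 7 leukocyte, 7 to 10 stromal and 2 to 5 broad members fell. Of leukocyte members 3 fell without culture 2 in DMSO or without culture 1 at 3 µM. Of broad members 5 fell without culture 3 at 3 µM, and 2 in each other fit without 1 library. At 3 µM the same 7 epithelial members were above the culture's own DMSO library in all 3 cultures. In every culture 10 of 12 stromal and 7 of 7 leukocyte members were below it. Over all genes tested, 76.5% went one way in all 3 cultures.

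**Figure D1:**
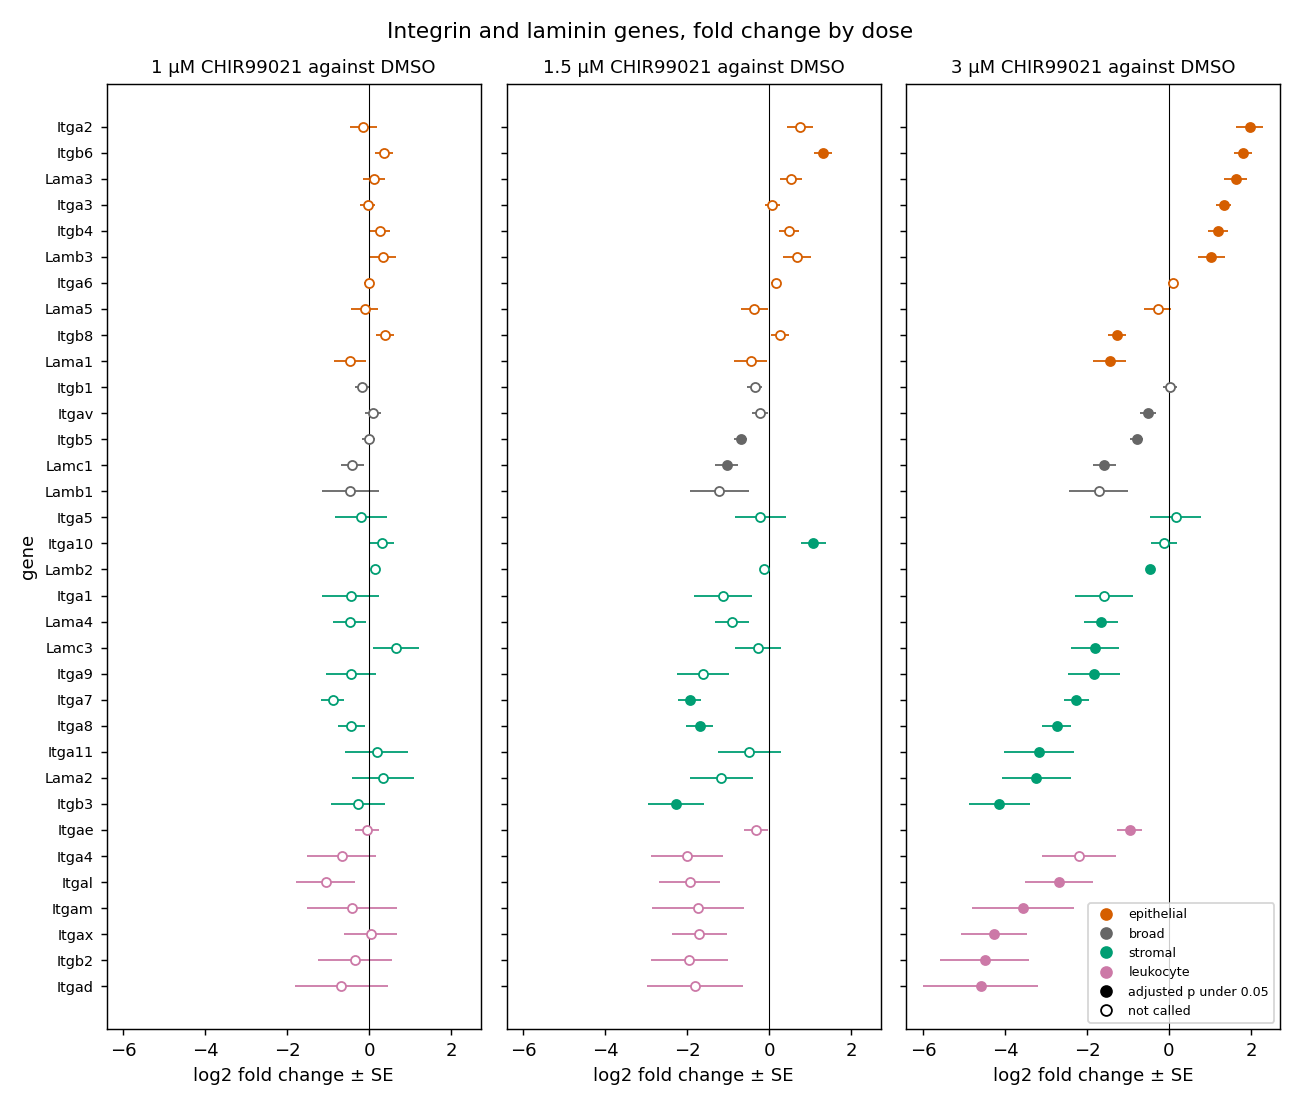
Log2 fold change ± SE against DMSO for members tested (rows, coloured by class) at 1, 1.5 and 3 µM CHIR99021 (panels); filled points have an adjusted p below 0.05. At 3 µM the points run from Itgad at −4.59 to Itga2 at 1.98, and the filled points to the right of 0 are all epithelial members.

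The smaller doses called fewer members. At 1 µM 0 of 35 members passed, where 0.242% of all genes did, and 0 passed under DESeq2 or with the culture as a block (5.61% of all genes). Itga7 alone had an unadjusted p below 0.05 at that dose. At 1.5 µM 8 members passed, where 27.3% of all genes did. Itgb6 and Itga10 were among those that rose (15.4% of all genes rose), and Itga7, Itga8, Itgb3, Itgb5 and Lamc1 fell (11.8% of all genes fell). With the block, 19 members passed at 1.5 µM, 3 higher and 16 lower, where 46.7% of all genes passed, 22.3% higher and 24.3% lower. The 16 included 6 of 7 leukocyte members, of which 0 passed without the block and 3 had an unadjusted p below 0.05 (Itga4, Itgal and Itgax). The 11 calls that the block added at 1.5 µM were all lower. They were Itga4 (adjusted p = 0.00261 with the block), Itgad (0.000154), Itgal (0.0273), Itgam (0.00734), Itgax and Itgb2 among leukocyte members, and Itga1 (0.0211), Itga9, Lama2, Lama4 (0.0104) and Lamb1 (0.00207), with the values not given here beside those genes. Against its own DMSO library Itga1 fell in cultures 1 and 2 (log2 changes −2.37 and −2.26) and not in culture 3 (0.03). The count at 1.5 µM fell to 4 without culture 2 in DMSO and to 5 without culture 1 at 1.5 µM. All comparisons with DMSO share the same 3 DMSO libraries.

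The laminin chains Lama3 and Lamb3 were among the 7 members that rose. Promoter sequence is shown for 3 of the 7 that rose at 3 µM, Lamb3, Itgb6 and Itga2. It is also shown for Itga10, the stromal member that peaked at 1.5 µM. The windows end before the first annotated base of each gene and are credited to RefSeq on GRCm38.p6, written 5′ to 3′ on the gene's strand. They are chr1:193301744-193301956 (plus strand), chr2:60722644-60722853 (minus strand), chr13:114932101-114932350 (minus strand) and chr3:96645334-96645583 (plus strand). Capitals mark a match to CTTTGAA, one form of the core motif of the TCF/LEF factors that β-catenin binds.
Lamb3: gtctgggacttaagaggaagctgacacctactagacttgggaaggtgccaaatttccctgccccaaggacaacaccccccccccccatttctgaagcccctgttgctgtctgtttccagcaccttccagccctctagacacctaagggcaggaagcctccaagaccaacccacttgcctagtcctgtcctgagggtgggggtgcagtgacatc
Itgb6: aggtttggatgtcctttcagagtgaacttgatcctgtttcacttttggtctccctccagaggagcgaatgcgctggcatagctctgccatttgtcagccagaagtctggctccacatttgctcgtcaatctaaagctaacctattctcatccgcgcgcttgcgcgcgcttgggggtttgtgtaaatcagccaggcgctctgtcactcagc
Itga2: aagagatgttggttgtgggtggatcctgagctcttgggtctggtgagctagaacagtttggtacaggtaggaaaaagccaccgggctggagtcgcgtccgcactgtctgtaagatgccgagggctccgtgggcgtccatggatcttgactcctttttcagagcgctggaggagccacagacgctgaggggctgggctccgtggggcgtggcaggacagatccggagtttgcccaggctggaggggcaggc
Itga10: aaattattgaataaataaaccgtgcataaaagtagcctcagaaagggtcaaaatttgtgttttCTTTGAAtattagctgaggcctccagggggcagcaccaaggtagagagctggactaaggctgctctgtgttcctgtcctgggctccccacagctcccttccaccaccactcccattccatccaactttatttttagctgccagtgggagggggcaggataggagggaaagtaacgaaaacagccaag
The 250 bases before the RefSeq start were searched on both strands for these letters, for the other form of the TCF/LEF core and for the AP-1 motif in the 22 members with such a window. The other form, CTTTGAT, was found in 0 of the 22 and in 3.21% of all 32851 windows. CTTTGAA was found in Itga10, 187 bases before its start, and in Itga1, 113 bases before its start, and in 4.46% of all windows. The AP-1 motif, TGANTCA, was found in Itgax and in 6.75% of all windows. A match is a description of the letters and no evidence of binding, and the windows of Lamb3, Itgb6 and Itga2 held none of these letters. The window of Itga3, which also rose at 3 µM and is not printed, held none either.

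Lama3 (chromosome 18, 12333819 to 12583013), the α3 chain of a laminin at epithelial hemidesmosomes, stood at 120, 88.5 and 108 CPM in DMSO in cultures 1 to 3, 120, 105 and 115 at 1 µM, 143, 136 and 181 at 1.5 µM, and 250, 226 and 502 at 3 µM. Culture 3 at 3 µM was the highest, and the 3 µM libraries did not overlap any other group. Lama3 rose by 1.63 ± 0.275 (SE) on the log2 scale at 3 µM (edgeR adjusted p = 0.000681), and by 1.15 without culture 3 at that dose (adjusted p = 0.000207). At 1.5 µM it was 0.54 (edgeR adjusted p = 0.161), and 0.51 without that 3 µM library (adjusted p = 0.0201).

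Lamb3 (chromosome 1, 193301957 to 193343878), the β3 chain, stood at 228, 124 and 118 CPM in DMSO, 270, 197 and 124 at 1 µM, 292, 283 and 180 at 1.5 µM, and 293, 280 and 389 at 3 µM. Its culture 1 started high, so that the DMSO and 1.5 µM libraries overlapped, while the 3 µM libraries lay above all DMSO libraries. At 3 µM Lamb3 had a log2 fold change of 1.03 ± 0.336 (edgeR adjusted p = 0.0233). Its call was lost without culture 2 in DMSO (adjusted p = 0.0894), culture 3 in DMSO (adjusted p = 0.0928) or culture 3 at 3 µM (adjusted p = 0.0771), and without TMM scaling (0.83, adjusted p = 0.0687).

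Among the 11 laminin chains 6 fell at 3 µM. Lamc1, the γ1 chain of most other laminins, stood at 357, 624 and 434 CPM in DMSO, 269, 409 and 385 at 1 µM, 186, 233 and 271 at 1.5 µM, and 119, 136 and 219 at 3 µM. The DMSO libraries lay above all of those at 1.5 and 3 µM. Lamc1 had log2 fold changes of −1.04 ± 0.283 at 1.5 µM (edgeR adjusted p = 0.0220) and −1.58 ± 0.287 at 3 µM (adjusted p = 0.00106). The 1.5 µM call was lost without culture 2 in DMSO (adjusted p = 0.0836), culture 1 at 1.5 µM (adjusted p = 0.0874) or culture 2 at 1.5 µM (adjusted p = 0.0636). Lama4, the α4 chain of vessel walls and fat, also fell at 3 µM (−1.67), as did Lama1, the α1 chain of early epithelial basement membranes (−1.45), Lamb2, the β2 chain of muscle and vessels (−0.48), and Lamc3 (−1.81, lost without culture 1 or 2 in DMSO or culture 1 at 3 µM, adjusted p 0.0555 to 0.0614). Lamb1, the common β1 chain, stood at 202, 413 and 496 CPM in DMSO and 38.0, 71.0 and 229 at 3 µM. The groups overlapped, although each culture fell, and the edgeR adjusted p was 0.0649 (log2 fold change −1.72) and 0.000107 with the block. Without culture 3 at 3 µM Lamb1 had a log2 fold change of −2.78 (edgeR adjusted p = 0.00936). Lama5, the α5 chain of adult epithelial basement membranes, stood at 246, 177 and 178 CPM in DMSO and 104, 119 and 274 at 3 µM. Culture 3 went up where cultures 1 and 2 went down, and the log2 fold change was −0.28 (edgeR adjusted p = 0.485) with culture 3 at 3 µM and −0.87 (adjusted p = 0.00417) without it.

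Levels of different chains were compared per kb of exon. The share of Lama3 among α chains was 22.3%, 13.8% and 18.0% in DMSO and 61.9%, 55.4% and 56.3% at 3 µM in cultures 1 to 3. For Lamb3 among β chains it was 42.0%, 20.9% and 19.1% in DMSO and 65.9%, 62.3% and 57.0% at 3 µM. Both shares were thus higher at 3 µM than in any DMSO library, and the cultures lay closer together at 3 µM than in DMSO. These shares combine the rise of 1 chain with the fall of the others. The ratio of Lama3 to Lama4 depended more on the length used, with 3 µM medians of 4.29 per kb of exon and 2.19 per kb of longest transcript.

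**Figure D2:**
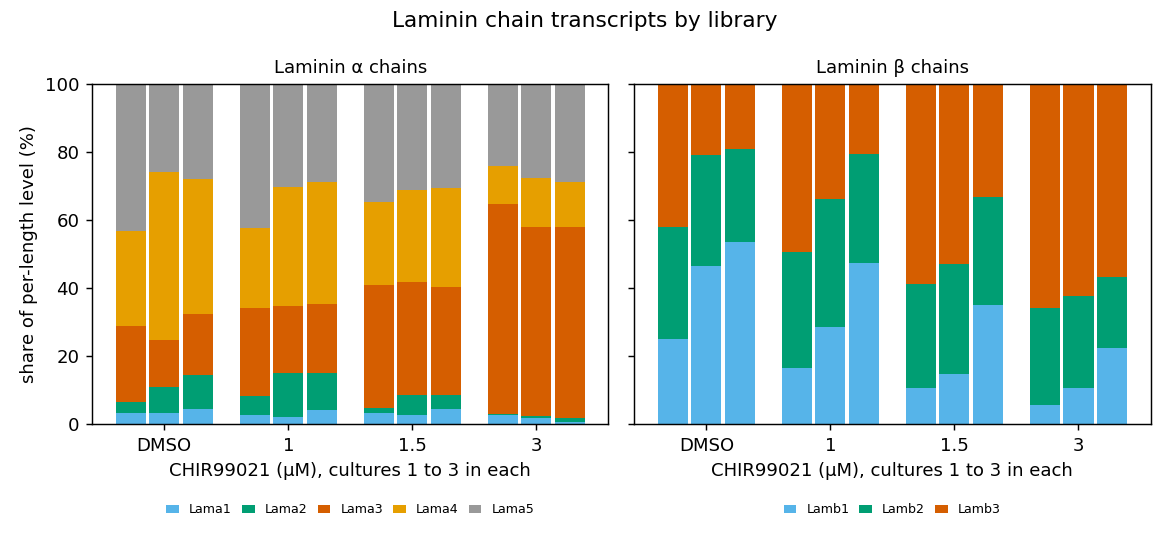
Share (%) of each laminin α and β chain in the summed per-kb level of its chain type, with 1 bar per library and cultures 1 to 3 from left to right in each dose. The orange parts (Lama3, Lamb3) are largest at 3 µM, where Lama3 takes 55.4% to 61.9% of the α chains.

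Among the laminin and collagen receptor chains of epithelium, Itgb4, Itga3 and Itga2 rose at 3 µM, while Itga6 and Itgb1, the partner of the 3 α chains, did not pass the test. Itgb4 (chromosome 11, 115974709 to 116008412), the β4 chain, which pairs only with α6, stood at 192, 112 and 105 CPM in DMSO, 195, 166 and 129 at 1 µM, 192, 196 and 188 at 1.5 µM, and 279, 266 and 391 at 3 µM. The 3 µM libraries lay above all others, and the log2 fold change was 1.19 ± 0.245 (edgeR adjusted p = 0.00215). Its partner Itga6, the α6 chain, did not follow: it stood at 589, 515 and 494 CPM in DMSO, 594, 533 and 461 at 1 µM, 609, 588 and 608 at 1.5 µM, and 587, 505 and 625 at 3 µM. The groups overlapped, and the difference was 0.10 ± 0.118 (edgeR adjusted p = 0.474). Per kb, Itga6 exceeded Itgb4 by 2.38, 3.58 and 3.64 times in DMSO and by 1.64, 1.48 and 1.24 times at 3 µM. With the longest transcript as the length the medians were 6.63 and 2.73.

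Itga3 (chromosome 11, 95044474 to 95076801), the α3 chain of the laminin receptor α3β1, stood at 82.5, 64.5 and 71.7 CPM in DMSO, 77.8, 72.4 and 63.7 at 1 µM, 69.5, 76.0 and 86.0 at 1.5 µM, and 154, 153 and 246 at 3 µM. Its level was flat up to 1.5 µM and the 3 µM libraries stood clear of the rest. Itga3 had log2 fold changes of 1.34 ± 0.187 at 3 µM (edgeR adjusted p = 0.000202) and 0.08 ± 0.184 at 1.5 µM (adjusted p = 0.774). Itga2, the α2 chain of the collagen receptor α2β1, stood at 11.5, 7.11 and 7.65 CPM in DMSO, 7.77, 8.97 and 7.16 at 1 µM, 15.1, 14.6 and 14.8 at 1.5 µM, and 25.5, 22.2 and 56.1 at 3 µM. All 1.5 µM libraries were above DMSO and all 3 µM libraries above those, with culture 3 more than any other. Itga2 had the largest increase of the members, 1.98 ± 0.332 at 3 µM (edgeR adjusted p = 0.000641), and 0.75 ± 0.324 at 1.5 µM (adjusted p = 0.111). Without culture 3 at 3 µM these were 1.42 (edgeR adjusted p = 0.000364) and 0.72 (adjusted p = 0.0173), and Itga2 no longer had the largest increase, since Itgb6 had 1.64.

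Itgb1, the β1 chain that pairs with most α chains, was the most abundant member per kb in DMSO (183 ± 8.45 CPM per kb, SD, n = 3). Its level was 781, 751 and 712 CPM in DMSO, 644, 677 and 664 at 1 µM, 554, 589 and 616 at 1.5 µM, and 607, 627 and 1043 at 3 µM. Cultures 1 and 2 stayed below their DMSO level at 3 µM while culture 3 exceeded every other library. At 3 µM Itgb1 had a log2 fold change of 0.02 ± 0.179 (edgeR adjusted p = 0.928). Without culture 3 at 3 µM it was −0.30 (adjusted p = 0.0128), so that the direction rests on that library. At 1.5 µM it was −0.35 (edgeR adjusted p = 0.171), and −0.38 without that 3 µM library (adjusted p = 0.00525).

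**Figure D3:**
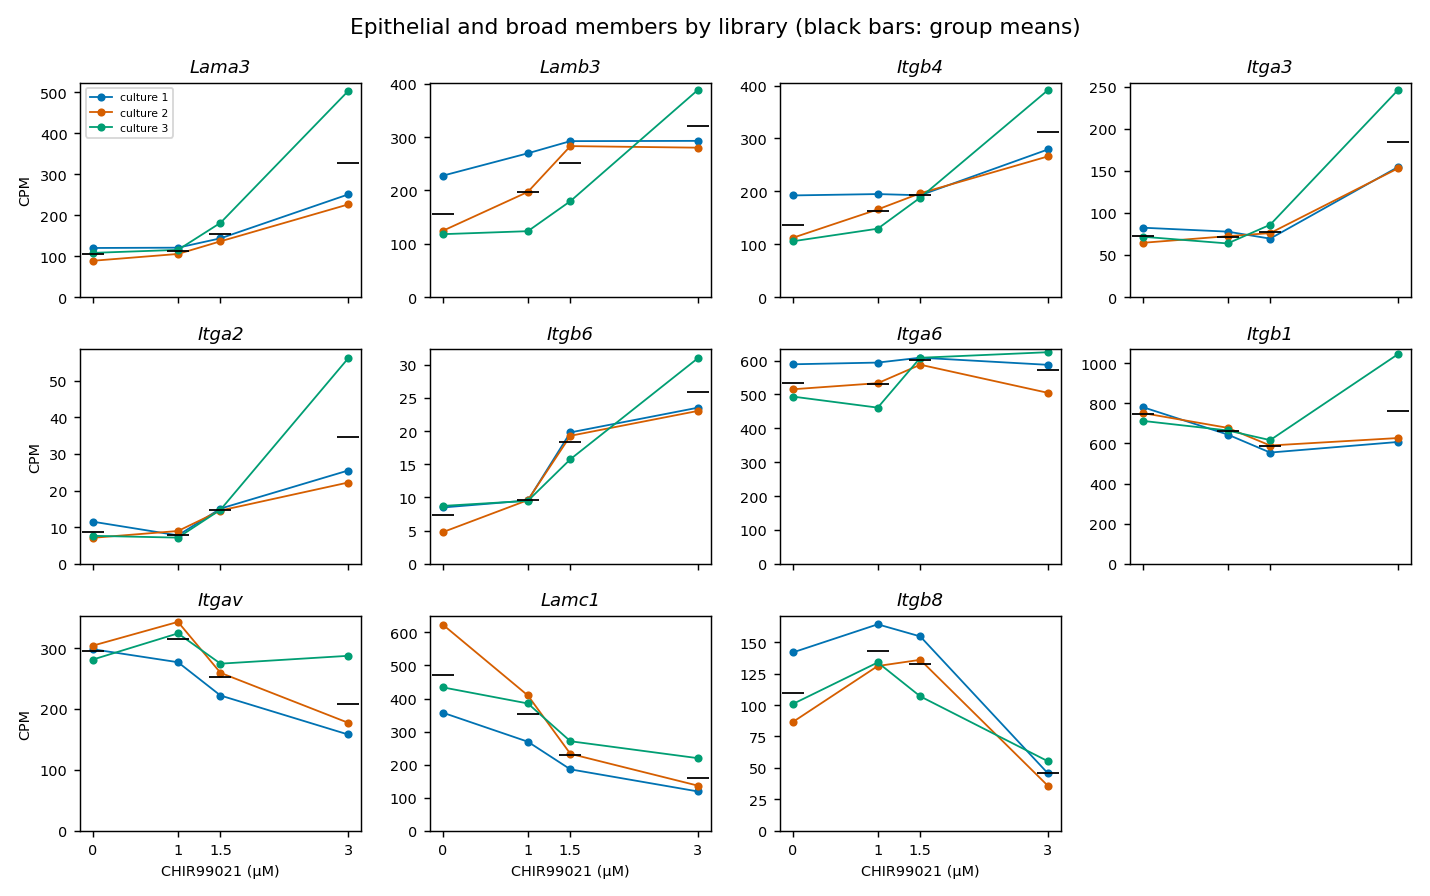
TMM-scaled CPM of 11 epithelial and broad members in each library against dose (µM, 0 is DMSO), with 1 line per culture and a black bar at each group's mean. Culture 3 (green) lies highest at 3 µM for Lama3 (502 CPM), Itga2 (56.1 CPM) and Itgb1 (1043 CPM), while Lamc1 and Itgb8 end below their DMSO levels.

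Beside the 7 epithelial increases, markers of the basal layer moved in both directions at 3 µM. Of 8 basal or myoepithelial markers, Krt5, Krt14 and Trp63 rose (log2 fold changes 3.42, 3.84 and 2.68) and the contractile or hormone-response genes Acta2, Myh11, Mylk, Cnn1 and Oxtr fell (−4.55, −5.25, −4.05, −5.54 and −7.10). Of 6 luminal markers (Krt8, Krt18, Krt19, Elf5, Gata3, Prlr) 0 rose and 4 fell. Of 6 general epithelial markers, which include the same Krt8 and Krt18, 2 rose and 2 fell. Over all genes tested 29.9% rose and 27.7% fell. The part of these cell types in the integrin and laminin results was not tested.

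The αv chain pairs with β1, β3, β5, β6 or β8, and its partners went different ways. Itgb6 (chromosome 2, 60598292 to 60722643), the epithelial partner that activates latent TGF-β, stood at 8.49, 4.77 and 8.72 CPM in DMSO, 9.55, 9.60 and 9.49 at 1 µM, 19.8, 19.3 and 15.8 at 1.5 µM, and 23.5, 23.0 and 31.0 at 3 µM. Each dose lay wholly above the one before it. Itgb6 had log2 fold changes of 1.31 ± 0.219 at 1.5 µM (edgeR adjusted p = 0.00236) and 1.81 ± 0.222 at 3 µM (adjusted p = 8.99e-05). Itgb3 (chromosome 11, 104608000 to 104670476) is the β chain of a vitronectin receptor. It was classed as stromal from general knowledge, and which cells expressed it here was not tested. Itgb3 stood at 337, 287 and 309 CPM in DMSO, 286, 284 and 202 at 1 µM, 67.8, 81.5 and 44.7 at 1.5 µM, and 2.90, 8.98 and 40.9 at 3 µM. The drop between 1 and 1.5 µM was present in every culture. Itgb3 did not pass edgeR's test of that step with or without the block, with an unadjusted p below 0.05 without it. Culture 3 kept the highest level at 3 µM. Itgb3 had log2 fold changes of −2.27 ± 0.688 at 1.5 µM (edgeR adjusted p = 0.0341) and −4.14 ± 0.752 at 3 µM (adjusted p = 0.00105), the latter −5.71 without culture 3 at 3 µM (adjusted p = 2.27e-05). The 1.5 µM call was lost in 7 of 12 fits without 1 library, each DMSO library, each 1.5 µM library or culture 2 at 1 µM, with adjusted p up to 0.0975.

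Itgav itself, the αv chain, stood at 298, 304 and 281 CPM in DMSO, 277, 343 and 324 at 1 µM, 222, 259 and 274 at 1.5 µM, and 158, 177 and 287 at 3 µM. Culture 3 at 3 µM stayed within the DMSO range. At 3 µM Itgav had a log2 fold change of −0.50 ± 0.197 (edgeR adjusted p = 0.0486), and the call was lost in 11 of 12 fits without 1 library, all but the one without culture 3 at 3 µM, with adjusted p up to 0.145. Without that library it was −0.83 (edgeR adjusted p = 0.000440). Itgb5, the broadly expressed β5 partner, fell by 0.69 at 1.5 µM (edgeR adjusted p = 0.0109) and by 0.79 at 3 µM (adjusted p = 0.00201). Itgb8, the β8 partner that also binds latent TGF-β, stood at 142, 86.4 and 101 CPM in DMSO, 164, 131 and 134 at 1 µM, 155, 136 and 107 at 1.5 µM, and 45.6, 35.7 and 55.3 at 3 µM. All 3 µM libraries lay below all others, and the log2 fold change was −1.27 ± 0.221 (edgeR adjusted p = 0.000811). Per kb, Itgb3 made up 18.6%, 16.9% and 18.7% of the 5 possible αv partners in DMSO and 0.278%, 0.818% and 2.27% at 3 µM. The share of Itgb6 went from 0.389%, 0.233% and 0.439% to 1.87%, 1.74% and 1.43%, so that its per-kb ratio to Itgb3 was 6.73, 2.13 and 0.629 in cultures 1, 2 and 3 at 3 µM. Itgb6 exceeded Itgb3 in cultures 1 and 2 and not in culture 3.

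By their best known sites of expression, the stromal members that fell were receptors and laminins of fibroblasts, muscle and vessels. Which cells expressed them here was not tested. Itga8, the α8 chain of a nephronectin and fibronectin receptor on mesenchyme and smooth muscle, stood at 483, 319 and 256 CPM in DMSO, 341, 261 and 182 at 1 µM, 117, 118 and 90.9 at 1.5 µM, and 38.0, 41.7 and 78.9 at 3 µM. DMSO did not overlap 1.5 or 3 µM, and the 1.5 and 3 µM libraries did not overlap each other. Its log2 fold changes were −1.70 ± 0.340 at 1.5 µM (edgeR adjusted p = 0.00559) and −2.74 ± 0.354 at 3 µM (adjusted p = 0.000131). Itga7, the α7 laminin receptor chain of muscle, stood at 36.2, 52.9 and 39.9 CPM in DMSO, 21.1, 30.7 and 17.7 at 1 µM, 10.4, 13.0 and 10.1 at 1.5 µM, and 6.98, 6.99 and 12.9 at 3 µM. Each 1 µM library was already below each DMSO library, with a log2 fold change of −0.89 ± 0.280 that did not pass (edgeR adjusted p = 0.247). At 1.5 µM it was −1.94 ± 0.289 (edgeR adjusted p = 0.00135) and at 3 µM −2.26 ± 0.294 (adjusted p = 0.000133).

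Itga11, the α11 collagen receptor chain of fibroblasts, stood at 62.6, 44.3 and 76.0 CPM in DMSO, 68.1, 54.6 and 86.0 at 1 µM, 39.9, 38.8 and 52.3 at 1.5 µM, and 0.784, 1.54 and 17.9 at 3 µM. Culture 3 kept a far higher level than the other 3 µM libraries, though below every 1.5 µM library. At 3 µM Itga11 had a log2 fold change of −3.17 ± 0.857 (edgeR adjusted p = 0.00970) and −5.70 without culture 3 at that dose (adjusted p = 6.23e-06), with −0.48 at 1.5 µM (adjusted p = 0.674). Lama2, the α2 chain of muscle and nerve basement membranes, stood at 25.3, 75.4 and 90.8 CPM in DMSO, 39.3, 107 and 95.1 at 1 µM, 10.1, 37.3 and 37.8 at 1.5 µM, and 1.49, 4.24 and 14.4 at 3 µM. Culture 1 was lowest at every dose, and all 3 µM libraries were below all DMSO libraries. At 3 µM Lama2 had a log2 fold change of −3.24 ± 0.844 (edgeR adjusted p = 0.00803). At 1.5 µM it was −1.16 (edgeR adjusted p = 0.285, and 0.0130 with the culture as a block).

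Itga9, the α9 chain of a tenascin receptor, stood at 17.6, 39.1 and 32.4 CPM in DMSO, 11.8, 25.5 and 27.8 at 1 µM, 3.82, 8.11 and 16.9 at 1.5 µM, and 3.29, 6.93 and 14.8 at 3 µM. Most of its decline in each culture came by 1.5 µM. At 3 µM Itga9 had a log2 fold change of −1.83 ± 0.642 (edgeR adjusted p = 0.0324), lost without culture 2 or 3 in DMSO or culture 1 or 2 at 3 µM (adjusted p from 0.0660 to 0.0950). At 1.5 µM it was −1.63 (edgeR adjusted p = 0.0826, and 0.00103 with the block). Itga1, the α1 collagen receptor chain, stood at 23.8, 38.9 and 28.7 CPM in DMSO and 4.16, 6.35 and 19.7 at 3 µM, a log2 fold change of −1.59 (edgeR adjusted p = 0.0800, 0.00479 with the block). Without culture 3 at 3 µM it was −2.55 (edgeR adjusted p = 0.0167).

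Itga5 and Itga10 were the stromal members without a decline at 3 µM that passed with or without the block. Itga5, the α5 chain of the fibronectin receptor, stood at 34.4, 83.4 and 83.7 CPM in DMSO and 41.7, 58.7 and 125 at 3 µM. It differed more between cultures than between doses, with a log2 fold change of 0.16 ± 0.629 (edgeR adjusted p = 0.839). Itga10, the α10 collagen receptor chain known from cartilage, stood at 2.0, 2.84 and 2.48 CPM in DMSO, 2.69, 3.95 and 2.33 at 1 µM, 5.16, 6.11 and 4.17 at 1.5 µM, and 2.12, 1.60 and 2.97 at 3 µM. The 1.5 µM libraries lay above all others, and those at 3 µM overlapped DMSO. Its log2 fold change was 1.08 ± 0.302 at 1.5 µM (edgeR adjusted p = 0.0239) and −0.12 ± 0.307 at 3 µM (adjusted p = 0.749). The 1.5 µM call was lost without any single DMSO library or without culture 1 or 2 at 1.5 µM (adjusted p from 0.0525 to 0.0872).

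The summed levels of stromal cell markers were also lower at 3 µM than in DMSO in each culture. The contractile or hormone-response genes Acta2, Myh11, Mylk, Cnn1 and Oxtr, given above as basal or myoepithelial markers, fell as well. The part of these cell types in the stromal results was not tested. The summed level of 8 fibroblast markers (Pdgfra, Pdgfrb, Dcn, Lum, Col1a1, Col1a2, Col3a1, Thy1) was 1631, 7385 and 20536 CPM in DMSO in cultures 1 to 3 and 178, 977 and 4580 CPM at 3 µM. Of the 8, 0 passed at 3 µM in edgeR's test, 0 had an unadjusted p below 0.05, and 7 fell with the block. All 5 endothelial markers fell, with sums of 243 to 503 CPM in DMSO and 27.1 to 86.6 CPM at 3 µM, and 2 of 4 pericyte markers fell, with sums of 286 to 366 CPM and 176 to 249 CPM. No tested marker of these lists was at 0 in all 3 µM libraries. The fibroblast sum was lowest in culture 1 in every group. In DMSO the stromal members Itga1, Itga5, Itga7, Itga9, Itga10, Lama2 and Lama4 were also lowest in culture 1. Itgb3 and Itga8 were highest there, and Itga11, Lamb2 and Lamc3 lay between the other cultures.

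The leukocyte members had the lowest class median at 3 µM (−3.57) and were low or variable from the start. Itgae, Itga4 and Itgal had smaller decreases than the stromal Itga8, Itga11, Lama2 and Itgb3. Itgb2, the β2 chain shared by the leukocyte integrins, stood at 7.38, 35.6 and 58.1 CPM in DMSO, 6.30, 23.1 and 49.8 at 1 µM, 2.74, 7.07 and 16.2 at 1.5 µM, and 0.392, 1.60 and 2.42 at 3 µM. The cultures kept their order at every dose, and all 3 µM libraries lay below all DMSO libraries. Itgb2 had log2 fold changes of −1.95 ± 0.941 at 1.5 µM (edgeR adjusted p = 0.148, and 6.40e-05 with the block) and −4.49 ± 1.09 at 3 µM (adjusted p = 0.00540). Its partner Itgam (αM, CD11b), found on macrophages and neutrophils, stood at 5.11, 35.6 and 77.2 CPM in DMSO, 4.01, 24.9 and 59.3 at 1 µM, 2.36, 6.45 and 26.5 at 1.5 µM, and 1.96, 3.21 and 4.69 at 3 µM. Its DMSO libraries spanned a wider range than those of Itgb2 and lay above all 3 µM libraries. At 3 µM Itgam had a log2 fold change of −3.57 ± 1.24 (edgeR adjusted p = 0.0310). The call was lost without culture 2 or 3 in DMSO or without any single 3 µM library (adjusted p from 0.0511 to 0.105).

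Itgax (αX, CD11c), known from dendritic cells and macrophages, stood at 1.87, 10.6 and 4.20 CPM in DMSO, 2.94, 8.14 and 5.68 at 1 µM, 0.764, 2.19 and 2.03 at 1.5 µM, and 0.0784, 0.321 and 0.414 at 3 µM. The 3 µM values rest on 1, 5 and 6 counts. Itgax had log2 fold changes of −1.70 at 1.5 µM (edgeR adjusted p = 0.0878, and 0.00229 with the block) and −4.27 ± 0.815 at 3 µM (adjusted p = 0.00139). Itgad (αD), a macrophage chain, stood at 3.95, 25.0 and 3.23 CPM in DMSO, 2.03, 15.3 and 2.39 at 1 µM, 0.955, 6.84 and 1.04 at 1.5 µM, and 0.235, 0.963 and 0.0690 at 3 µM. Culture 2 was highest at every dose, unlike Itgb2 and Itgam, which were highest in culture 3. The 3 µM values rest on 3, 15 and 1 counts. At 3 µM Itgad had a log2 fold change of −4.59 ± 1.40 (edgeR adjusted p = 0.0176), lost without culture 2 in DMSO or without culture 1 or 3 at 3 µM (adjusted p from 0.0534 to 0.0724).

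The remaining leukocyte members had few counts. Itgal (αL of lymphocytes) fell by 2.69 (edgeR adjusted p = 0.0186, lost without culture 2 in DMSO or culture 2 or 3 at 3 µM, 0.0533 to 0.0671). Itgae (αE of epithelial T cells) fell by 0.96 (edgeR adjusted p = 0.0201, lost without culture 3 in DMSO or culture 1 at 3 µM, 0.0579 and 0.0595). Itga4, the α4 chain that binds VCAM1, stood at 2.04, 5.08 and 5.33 CPM in DMSO and 0.0784, 0.513 and 2.07 at 3 µM, a log2 fold change of −2.20 with an edgeR adjusted p of 0.0592, which was 0.000780 with the block. Without culture 3 at 3 µM Itga4 had −3.74 (edgeR adjusted p = 0.00929). Of 6 leukocyte markers tested (Ptprc, Csf1r, Cd68, Tyrobp, Lyz2, Fcer1g) 0 rose and 5 fell at 3 µM. Their list summed to 256, 1321 and 2503 CPM in DMSO in cultures 1 to 3 and to 38.3, 108 and 116 CPM at 3 µM, in the same order of cultures as Itgb2 and Itgam. Markers of T cells (Cd3e) and B cells (Cd79a) had too few counts to be tested. The part of the leukocyte content in these results was not tested.

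**Figure D4:**
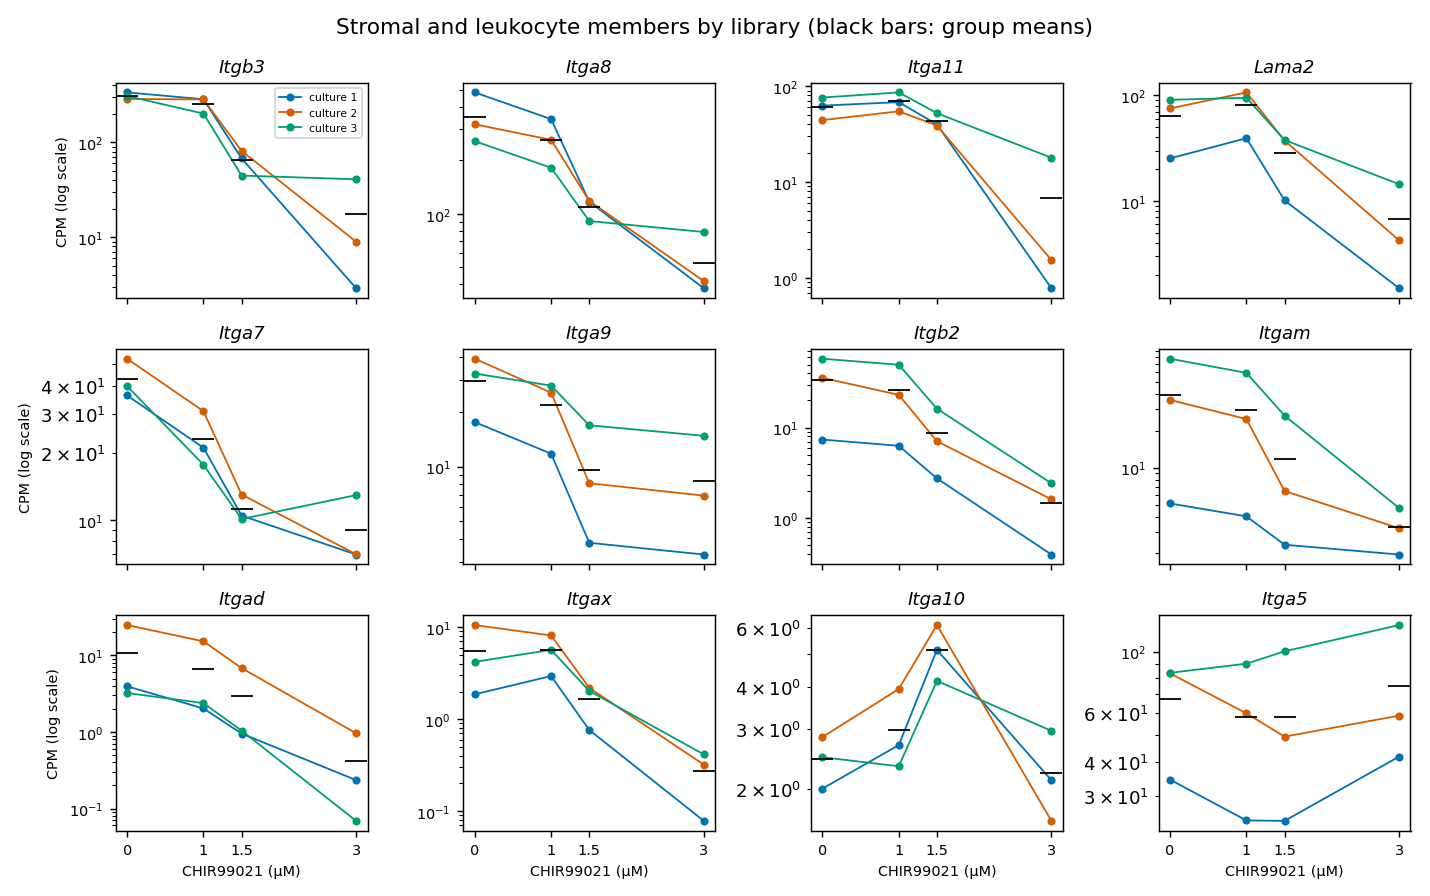
TMM-scaled CPM (log axis) of 12 stromal and leukocyte members in each library against dose (µM, 0 is DMSO), with 1 line per culture and a black bar at each group's mean. Culture 3 (green) lies above the other cultures at 3 µM for Itgb3 (40.9 CPM) and Itga11 (17.9 CPM), and Itga10 peaks at 1.5 µM in all 3 cultures.

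The steps between doses placed the changes. From 1 to 1.5 µM Itgb6 rose (0.94, edgeR adjusted p = 0.0349) and Itgb5 fell (−0.68, adjusted p = 0.0379), so that 2 of 35 members passed where 5.43% of all genes did, 4.43% higher and 0.992% lower. Itgb6 lost its call without any 1 µM library, culture 1 or 2 at 1.5 µM or culture 1 at 3 µM (adjusted p up to 0.127). Itgb5 lost its call without any library of DMSO, 1 µM or 1.5 µM or without culture 2 at 3 µM (adjusted p up to 0.151). With the block 13 members passed, 1 higher and 12 lower, where 21.9% of all genes did, 11.3% higher and 10.5% lower. The added calls, with adjusted p from 0.000793 to 0.0459, were Itga4, Itga7, Itga8, Itga9, Itgad, Itgam, Itgax, Itgb2, Lama2, Lamb1 and Lamc1. Without culture 3 at 3 µM 6 members passed, 2 higher and 4 lower. From 1.5 to 3 µM 10 members passed, where 29.7% of all genes did. Itga2, Itga3 and Lama3 were among those that rose (17% of all genes rose) and Itga8, Itga10, Itga11, Itgax, Itgb8 and Lamb2 fell (12.7% of all genes fell). With the block 20 passed, 5 higher and 15 lower, where 46.7% of all genes did, 24.7% higher and 22% lower. The added calls, with adjusted p from 6.03e-05 to 0.0445, were Itgb4, which rose, and Itgad, Itgae, Itgam, Itgb2, Itgb3, Lama2, Lama4, Lamc1 and Lamc3, which fell. Itga3 (1.26, edgeR adjusted p = 0.00124) and Itgb8 (−1.54, adjusted p = 0.00114) kept their calls without any single library. The count was 3 without culture 2 at 1.5 µM, 5 without culture 3 at 1.5 µM, 6 without culture 1 at 3 µM, 5 without culture 2 at 3 µM and 15 without culture 3 at 3 µM, 4 higher and 11 lower.

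Other genes of the basement membrane and hemidesmosomes mostly fell. Of 14 such partners 2 rose and 10 fell at 3 µM, with a median log2 fold change of −0.81, where 29.9% of all genes rose and 27.7% fell (median −0.03). With the block 2 rose and 12 fell, where 34.1% and 34.8% of all genes did. The 2 that rose were Col17a1, the hemidesmosome's collagen XVII (1.29, edgeR adjusted p = 0.00984), and Fermt1, the epithelial kindlin, which binds integrin tails inside the cell but was placed in this list (1.62, adjusted p = 0.000480). The largest changes were those of the netrin Ntn4, which binds laminin γ1 (−3.44, from 35.4 ± 20.2 to 3.25 ± 0.640 CPM, SD, n = 3, edgeR adjusted p = 0.000317), and of the type IV collagen chains Col4a1 (−3.23, adjusted p = 0.000483) and Col4a2 (−3.14, adjusted p = 0.000627). Col4a1 averaged 1591 CPM in DMSO and 169 CPM at 3 µM.

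Among 20 tested partners of integrin tails inside the cell 1 rose and 12 fell (median −0.53), beside the same 29.9% and 27.7% of all genes. With the block 4 rose and 14 fell. Actn1, an actin cross-linker, was the 1 that rose (0.69, edgeR adjusted p = 0.0103). Tns1, which links integrins to actin, fell from 273 ± 75.5 to 13.2 ± 5.43 CPM (SD, n = 3, log2 fold change −4.36, edgeR adjusted p = 5.53e-06). Fermt3, the kindlin of blood cells, fell by 2.60 (edgeR adjusted p = 0.0142), and Tln1, the talin that activates integrins, fell by 0.86 (adjusted p = 0.00180). Of 11 tested integrin ligands other than laminin 0 rose and 5 fell (median −2.05), against those same shares of all genes, with 1 higher and 6 lower with the block. They included the leukocyte ligands Icam2 (−2.56, edgeR adjusted p = 0.0224) and Vcam1 (−2.24, adjusted p = 0.0191) and nephronectin, Npnt, the ligand of α8β1 (−2.05, adjusted p = 0.000215).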

How the data were processed

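Per the labels' protocols, polyadenylated RNA from 12 organoid samples (3 cultures at 4 doses) went into a stranded Illumina TruSeq preparation for HiSeq sequencing. Per the submitters' processing notes, TopHat2 2.1, Bowtie 1.1.0, HTSeq and DESeq2 were used with GRCm38 (mm10). The authors deposited raw read counts for Ensembl genes, and these were tested. Recomputing the authors' second table as log2(count per 10 M + 1) from the counts gave 0 differing values (tolerance 1e-09). Columns not assigned to a sample numbered 0. Library totals were 10.1 to 24.5 M counts, and no molecular identifiers are described, so low counts carry at least counting error. Gene positions are those of the deposited table.

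Genes were kept with filterByExpr on the 4 groups, which left 15316, and TMM-scaled. Contrasts used edgeR 4.0.16 under R 4.3.3 (robust glmQLFit, then a two-sided glmQLFTest), with 4 group means fitted to all 12 libraries, and Benjamini-Hochberg adjustment over all genes tested at 0.05. The steps were tested on simulated data. CPM is the TMM-scaled count per M counts, and lengths for levels per kb are exon unions in GENCODE M21. Within groups, every pair of libraries differed beyond sampling noise (lowest chi-square per degree of freedom 12.8), so each was counted.

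The replicate numbers pair the libraries, since the series' design text ties the 3 numbered cultures to 3 animals and all 4 treatments. The titles also carry the words med, min and max, each with 1 number, whose meaning is not given. Deviations from group means correlated in all 18 pairs of the same number (median 0.505, from 0.177 to 0.840). The 36 pairs of different numbers had a median of −0.212. Centring on group means pushes those pairs below 0 where same-number pairs lie above it, so their value is no separate evidence of pairing. The fit with the number as a block is an alternative, and the calls it changed are named. The fits that left out libraries had no block, so calls lost there were not retested with the pairing. With all libraries kept, the block took away 0 of the members' calls. Other alternatives were DESeq2 1.42.0, other scaling, no filter, only the 2 groups compared, and leaving out each library or culture.

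The members, classes and lists were chosen with earlier results of these data known. Values in every library are given for members with at least 50 counts on average that were called against DMSO (the 10 largest increases and decreases at 3 µM), for Lama3, Lamb3 and the chains of integrins α6β4, α3β1 and αvβ6, and for others where a call depends on the fit. Of each partner list the 3 called genes with the largest change and at least 50 counts are named. Lama1, Itgb5, Itgb8, Lama4, Lama5, Lamb1, Lamb2, Lamc1, Lamc3, Itga1, Itga4, Itga5, Itga10, Itgae, Itgal, Col17a1, Fermt1 and Actn1 were added after their values were seen. One member counts in the totals but is not reported here by name.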

Additional observations from a re-analysis of the deposited data

How the results depend on the processing

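The count of members called at 1 µM was 0 in every alternative run. At 1.5 µM against DMSO it was 8, 19 with the replicate block, and 1 to 11 when single libraries or whole cultures were left out. At 3 µM against DMSO it was 27, and 12 to 29 when libraries or cultures were left out, with 12 without culture 2 and 20 to 28 without single libraries, and 19 of the 27 calls held in all 12 single-library fits. From 1 to 1.5 µM it was 2, 13 with the replicate block, 1 without a filter on low counts, 5 with only the 2 groups, 5 with DESeq2, and 0 to 6 in leave-one-out fits. From 1.5 to 3 µM it was 10, 20 with the replicate block, 6 with only the 2 groups, and 0 to 15 in leave-one-out fits. The block took away 0 of the members' calls and added 35 over the 5 comparisons. Moving Itga4, Itga5, Itga9 and Lamb2 to the broad class changed the leukocyte median at 3 µM from −3.57 to −3.92. The stromal median went from −1.82 to −2.26, and the broad median stayed at −0.79. Without TMM the median of all genes at 3 µM went from −0.03 to −0.23, and 6 members were higher and 22 lower. Itgb1 at 3 µM (0.02) ran from −0.32 to 0.19 in leave-one-out fits, and changed sign with a call without culture 3 at that dose (−0.30) or without culture 3 altogether (−0.32). Few counts at 3 µM (1 to 15) limit the precision of Itgad and Itgax. Itgal, and Itga4 and Itgb2 in culture 1, also had few counts at that dose. Groups of 3 libraries are too small for a check of single outlying values. With 3 cultures, a member that missed the threshold is not shown to be unchanged. The cause of these differences was not tested.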
